A study of Mus musculus with 4 samples.

Results

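The genes of glycolysis and of the response to low oxygen were followed in mouse trachea at embryonic day 16, in a1H knockout embryos and in wild-type embryos. The 38 genes were taken by name, 24 that act in the uptake and use of glucose and 14 further genes of the hypoxia response. The platform annotation paired at least 1 probe set with a single gene for 18193 genes of the whole array. This held for 34 of the 38 genes, and 32 of these passed the filter on dim probe sets. The study had 2 arrays of a1H knockout trachea and 2 of wild-type trachea, all on a C57BL/6 background and numbered 1 and 2 in each genotype. The design describes the knockout embryos as homozygous, and the name a1H was read as alpha-1H, the pore subunit of a T-type calcium channel that Cacna1h encodes. Whether an array held the trachea of 1 embryo or of pooled embryos is not given in the sources used here, and the spread behind every p-value is that between these arrays, which may be technical. Values are MAS5 signals, an Affymetrix brightness per probe set on a linear scale, and are given for replicate 1 and then replicate 2 of each genotype.

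Glycolysis splits glucose into pyruvate in the cytosol. Glucose enters through facilitative transporters, is trapped by hexokinases, and is committed by phosphofructokinase, after which aldolase, triose phosphate isomerase and the lower enzymes lead to pyruvate. Lactate dehydrogenase turns pyruvate into lactate, while pyruvate dehydrogenase sends it to the mitochondria. At low oxygen the factor HIF-1, made of Hif1a and its partner Arnt, escapes the prolyl hydroxylases that mark it for breakdown and raises many of these genes together with others for vessel growth, mitophagy and collagen hydroxylation. Growing cartilage has few vessels and is known to depend on HIF-1, and cartilage rings form in the wall of the trachea at this stage.

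The arrays held tracheal transcripts and also transcripts of neighbouring or foreign tissue. Of the marker lists, 11 of 11 cartilage genes, 8 of 8 smooth muscle genes and 8 of 9 airway epithelium genes passed the level filter, while Nkx2-1, a transcription factor of the lung and tracheal epithelium, averaged 211. The summed signal of 5 measured placental genes was 249 and 101002 on the labelled knockout arrays, against 274 and 533 on the wild-type arrays. That of 8 thymocyte genes was 31610 and 12623 on the labelled knockout arrays, against 5305 and 14910 on the wild-type arrays. For 4 salivary gland genes the sums were 24147 and 8064 on the labelled knockout arrays, against 70.7 and 60501 on the wild-type arrays. For 7 erythroid genes they were 24144 and 37324 on the labelled knockout arrays, against 23600 and 17825 on the wild-type arrays, and 4 of these genes were under the level filter. Cacna1h itself read 981 and 631 on the arrays labelled knockout, against 630 and 538 on those of wild type. It was not lower, and since the probe set may lie outside the deleted part this does not check the label, so directions here rest on the labels.

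No glycolysis or hypoxia gene reached the threshold between the genotypes after adjustment over all genes. With limma and Benjamini-Hochberg adjustment over 11694 genes, 0 of 32 tested members and 0% of all genes had an adjusted p under 0.05, and no member had an adjusted p below 0.875. Unadjusted, p was under 0.05 for 3 members against 4.58% of all genes tested. Aldoc and Ldhb were those on the higher side, where 2.83% of all genes lay, and Vegfa was the one on the lower side, where 1.75% lay. As a description, 19 of 20 tested glucose-use genes and 9 of 12 tested hypoxia genes had a mean above that of wild type, against 55.9% of all genes. With each array centred on its median these counts were 20 of 20 and 10 of 12, against 82.6% of all genes, and with probe sets averaged per gene they were 16 of 18 and 6 of 12, against 47.1%. The median log2 difference, labelled knockout minus wild type on the log2(signal + 16) scale, was 0.23 for the glucose-use genes, 0.07 for the hypoxia genes and 0.04 for all genes tested. Within replicate number 1, 19 of the 20 glucose-use genes read higher in labelled knockout, against 55.1% of all genes, and within number 2, 16 did, against 54.5%. Both numbers showed it for 15 of the 20, against 36% of all genes. In bulk tissue a different number of cells of a type and a different amount of RNA per cell cannot be told apart.

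These counts depended on single arrays, and a fit without 1 array assumes that the lone array of a genotype varies like the others. Without labelled knockout 1, the limma fit called 492 genes, or 4.21% of those tested, among them Aldoc and Vegfa. Without labelled knockout 2 it called 104, or 0.889%, among them Pfkp. It called 1 gene, or 0.00855%, without wild type 2, the salivary gland gene Smgc (named after its values were seen), and 0 genes without wild type 1, where 279 genes had an unadjusted p under 0.05. The number of glucose-use genes above wild type was 15 of 20 without labelled knockout 1, 17 without labelled knockout 2, 14 without wild type 1 and 19 without wild type 2. Wild type 1 was the lowest array for 11 of the 20 glucose-use genes, against 20.9% of all genes, and the median of the group without it was 0.12.

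**Figure D1:**
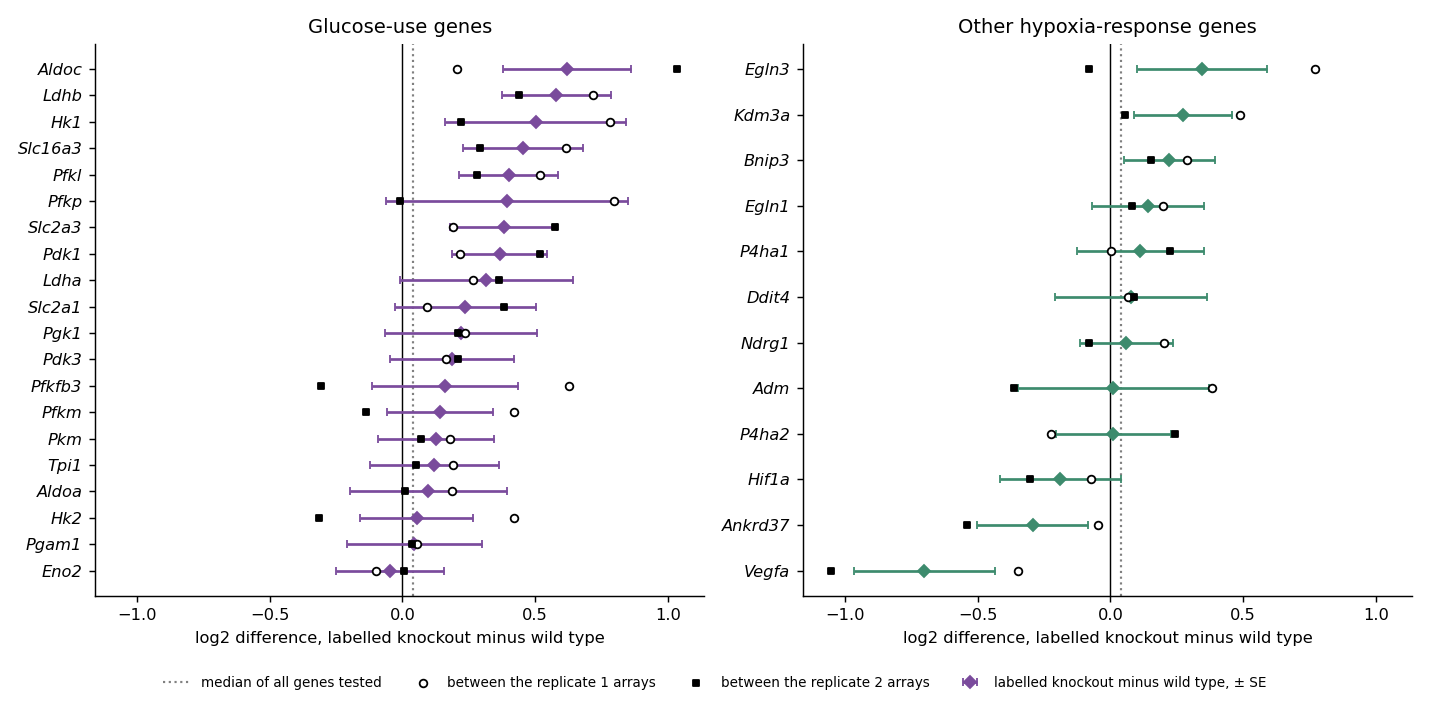
Log2 differences (labelled knockout minus wild type, log2(signal + 16) scale) of the 20 tested glucose-use genes, left, and the 12 other tested hypoxia-response genes, right, with diamonds for the fit and bars for its SE over 2 arrays per group. Open circles and filled squares show the differences between the replicate 1 and the replicate 2 arrays, and the dotted line is the median of all genes tested, 0.04. Aldoc lies at 0.62 and Vegfa at -0.70, and 19 of 20 diamonds in the left panel lie above 0 (20 of 20 with each array centred on its median, 18 of 20 after quantile normalisation).

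Promoters of the members are shown because hypoxia-response elements hold a short core to which HIF-1 binds, written here as ACGTG or GCGTG and searched on both strands. RefSeq sequences of build GRCm38.p6 were at hand for 35 of the 38 genes, without Slc2a3, Ndrg1 and Bnip3l. In the 250 bases before the start, 40 of 51 member promoters held at least 1 match, or 78.4%, against 38.6% of all 32851 promoters in the table. A match was found for 20 of 23 glucose-use genes and 12 of 12 hypoxia genes in at least 1 promoter, and for 41.5% of 27025 genes in all. Promoters were not matched between members and all genes in base composition or level, and the part of either in these shares was not tested. The 4 promoters with 4 or more matches are printed, with matches in capitals. They are Ldha at chr7:46845554-46845803 on the plus strand, and on the minus strand Bnip3 at chr7:138909507-138909756, Ankrd37 at chr8:45999851-46000100 and Pdk3 at chrX:93832151-93832400. A match on 1 strand can overlap a match on the other, as in a palindromic CACGTG, so the 5 matches of Ldha lie at 3 sites and the 5 of Bnip3 at 4 sites, and the 4 of Ankrd37 lie at 3 sites and the 4 of Pdk3 at 4 sites.
Ldha: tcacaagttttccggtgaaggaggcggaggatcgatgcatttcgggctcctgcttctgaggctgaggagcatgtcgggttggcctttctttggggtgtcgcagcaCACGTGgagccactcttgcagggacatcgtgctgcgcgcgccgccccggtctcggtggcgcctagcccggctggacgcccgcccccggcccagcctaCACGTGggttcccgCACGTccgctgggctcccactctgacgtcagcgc
Bnip3: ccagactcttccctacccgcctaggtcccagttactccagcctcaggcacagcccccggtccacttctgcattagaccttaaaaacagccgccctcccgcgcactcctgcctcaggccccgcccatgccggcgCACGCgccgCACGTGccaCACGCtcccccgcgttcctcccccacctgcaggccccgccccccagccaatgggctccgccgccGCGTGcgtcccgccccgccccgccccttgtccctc
Ankrd37: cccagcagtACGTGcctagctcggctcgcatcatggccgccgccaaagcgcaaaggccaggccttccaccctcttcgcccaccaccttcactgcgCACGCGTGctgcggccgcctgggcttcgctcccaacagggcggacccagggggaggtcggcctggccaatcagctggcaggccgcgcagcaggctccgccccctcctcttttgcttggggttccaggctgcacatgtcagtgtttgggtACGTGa
Pdk3: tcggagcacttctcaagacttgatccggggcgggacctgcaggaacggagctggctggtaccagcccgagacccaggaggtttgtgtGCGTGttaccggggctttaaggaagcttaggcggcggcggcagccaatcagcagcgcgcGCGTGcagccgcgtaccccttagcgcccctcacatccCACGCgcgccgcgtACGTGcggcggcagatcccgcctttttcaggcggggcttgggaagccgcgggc
These genes did not share a direction in the array data. The log2 differences were 0.32 for Ldha, 0.22 for Bnip3, 0.19 for Pdk3 and -0.29 for Ankrd37. A match is a run of letters and was not shown to be bound here.

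Glucose uptake and trapping came first in the order of the pathway. Slc2a1, the glucose transporter GLUT1 of most fetal cells, read 12418 and 18448 on the labelled knockout arrays, against 11655 and 14143 on the wild-type arrays. The groups overlapped, and the log2 difference of 0.24 (SE 0.27) was 0.38 within replicate number 2 and 0.09 within number 1. Its other 2 probe sets gave 0.33 with overlap and 0.38 without. Slc2a3, the high-affinity transporter GLUT3, read 2545 and 3111 on the labelled knockout arrays, against 2227 and 2085 on the wild-type arrays. These groups did not overlap, with a log2 difference of 0.38 (SE 0.20), and another probe set gave 0.29, also without overlap. The other 2 Slc2a3 probe sets were dim, at 76.1 or less on every array. Both transporters were highest on labelled knockout 2, the array with placental transcripts, and the part of placental RNA in this was not tested.

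Hexokinases add the first phosphate to glucose, and Hk1 is the form of most tissues while Hk2 is inducible by hypoxia and insulin. Hk1 read 2879 and 1489 on the labelled knockout arrays, against 1668 and 1275 on the wild-type arrays. Labelled knockout 1 was high while labelled knockout 2 lay between the wild-type arrays, and the log2 difference of 0.50 had an SE of 0.34. Without labelled knockout 1 it was 0.030, without labelled knockout 2 it was 0.97, and without wild type 2 it was 0.31. A dimmer Hk1 probe set gave 0.07. Hk2 read 6499 and 5020 on the labelled knockout arrays, against 4848 and 6247 on the wild-type arrays. Its differences ran in opposite directions within the replicate numbers, 0.42 and -0.31, and the interval of the overall difference of 0.05 reached from -0.45 to 0.55.

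Phosphofructokinase is the committed step, and its liver-type, muscle-type and platelet-type subunits are encoded by Pfkl, Pfkm and Pfkp. Pfkl read 3182 and 2855 on the labelled knockout arrays, against 2214 and 2346 on the wild-type arrays. Both knockout values lay above both wild-type values, with a log2 difference of 0.40 (SE 0.19), and 2 further probe sets gave 0.32 and 0.25. Pfkm read 5281 and 3931 on the labelled knockout arrays, against 3940 and 4323 on the wild-type arrays, a log2 difference of 0.14 (SE 0.20) with overlap. Pfkp read 4678 and 1715 on the labelled knockout arrays, against 2683 and 1727 on the wild-type arrays. Labelled knockout 1 alone was high, the replicate 2 arrays differed by -0.01, and the SE of 0.46 was larger than the log2 difference of 0.39. A dimmer Pfkp probe set gave -0.14 with overlap, and another, at 20.5 or less on every array, gave -0.41. Without labelled knockout 2 the log2 difference of Pfkp was 1.11, and without labelled knockout 1 it was -0.33. Thymocyte genes were also highest on labelled knockout 1, with 7 of 8 measured markers passing the level filter, and their part in Pfkp was not tested.

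The bifunctional kinases that set fructose 2,6-bisphosphate, the activator of phosphofructokinase, were measured through Pfkfb3 and Pfkfb4. Pfkfb3 read 2366 and 1551 on the labelled knockout arrays, against 1527 and 1925 on the wild-type arrays, with log2 differences of 0.63 and -0.31 within replicate numbers 1 and 2. Its dimmer probe set ran the other way and averaging both turned the difference of 0.16 into -0.67. Pfkfb4 was below the level filter, at 410 and 185 on the labelled knockout arrays, against 349 and 283 on the wild-type arrays. In the fit with no filter its log2 difference was -0.18 with an SE of 0.48.

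Aldolase splits the 6-carbon sugar, and Aldoa is the form of muscle and most embryonic tissue while Aldoc is best known from brain. Aldoa read 22635 and 26291 on the labelled knockout arrays, against 19899 and 26140 on the wild-type arrays, and the log2 difference was 0.10 (SE 0.30) with overlap. Its dimmest probe set gave -0.34 and the others between 0.15 and 0.20, all with overlap. Aldoc read 2624 and 3680 on the labelled knockout arrays, against 2271 and 1790 on the wild-type arrays. Its log2 difference of 0.62 (SE 0.24, unadjusted p = 0.037, adjusted p = 0.875) was the highest of the 32 tested members in the limma fit. That difference was 1.03 within replicate number 2 and 0.21 within number 1, and the other Aldoc probe set was dim, at 116 or less on every array. Tpi1, which interconverts the triose phosphates, read 17710 and 19060 on the labelled knockout arrays, against 15529 and 18382 on the wild-type arrays, a log2 difference of 0.12 (SE 0.24) with overlap.

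**Figure D2:**
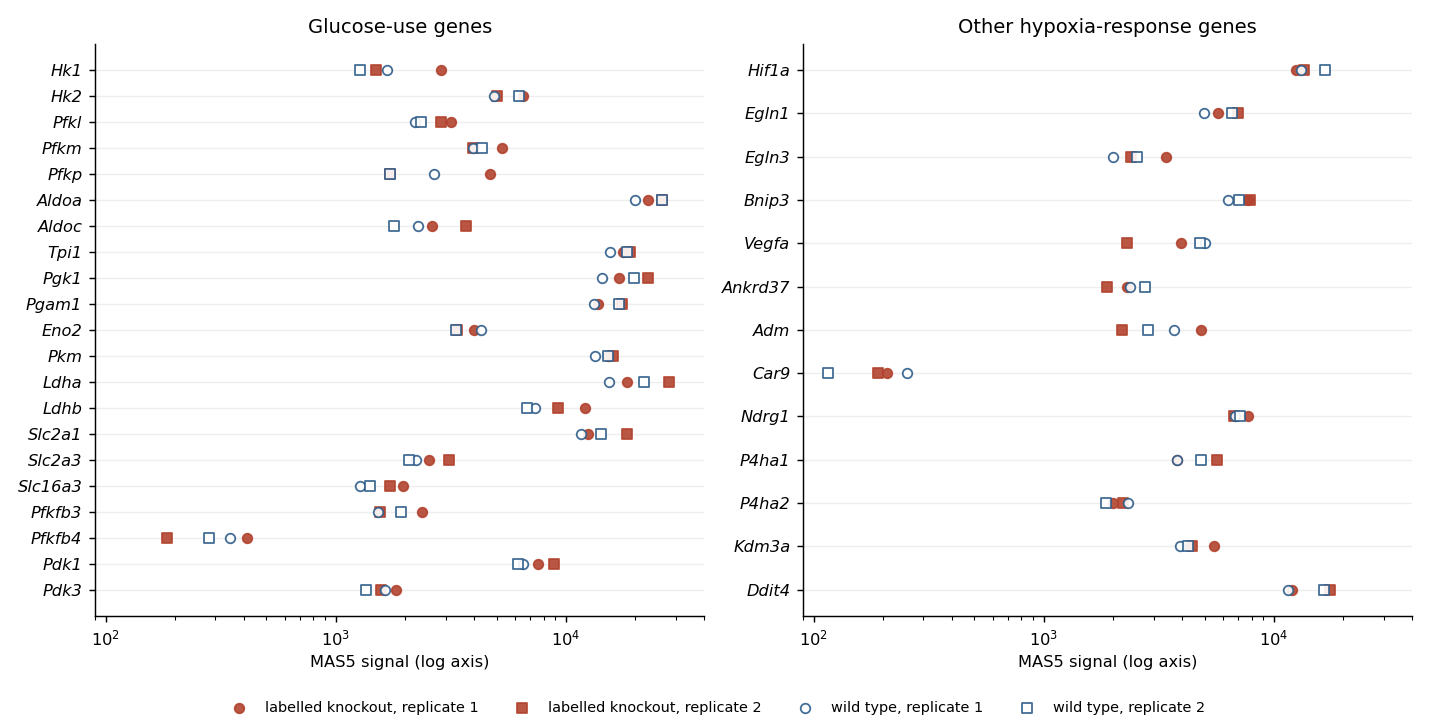
MAS5 signals (log axis) of the 21 glucose-use genes with a probe set of their own, left, and the 13 other hypoxia-response genes, right, with 1 point per array. Filled red points are labelled knockout and open blue points wild type, circles replicate 1 and squares replicate 2. Groups without overlap include Ldhb, at 9228 or more in labelled knockout and 7367 or less in wild type, and Vegfa, at 3952 or less in labelled knockout and 4771 or more in wild type.

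In the lower pathway Pgk1 (on its brightest probe set), Pgam1 and Eno2 differed more between replicate numbers than between genotypes. Pgk1, phosphoglycerate kinase and a classic HIF-1 target, read 16968 and 22736 on the labelled knockout arrays, against 14422 and 19675 on the wild-type arrays. Its log2 difference was 0.22 (SE 0.29), about equal within the replicate numbers at 0.23 and 0.21. Pgam1, phosphoglycerate mutase, read 13756 and 17462 on the labelled knockout arrays, against 13250 and 17022 on the wild-type arrays, a log2 difference of 0.05 that was -0.0062 after quantile normalisation. Pkm, the pyruvate kinase of muscle and growing cells, read 15191 and 15956 on the labelled knockout arrays, against 13399 and 15190 on the wild-type arrays. The Pkm groups did not overlap, but labelled knockout 1 and wild type 2 were nearly tied, at 15190.7 and 15189.9. That margin was far under the spread of the wild-type pair, and the log2 difference was 0.13 (SE 0.22). Eno2, the neuronal enolase, read 3993 and 3349 on the labelled knockout arrays, against 4283 and 3331 on the wild-type arrays. It had the 1 negative value among the 20 genes, -0.05 (SE 0.20), which was 0.19 with each array centred on its median.

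Gapdh, glyceraldehyde 3-phosphate dehydrogenase, was covered by 3 control probe sets along its transcript and by no other probe set paired with it alone. The 3' control read 19903 and 36301 on the labelled knockout arrays, against 18395 and 28998 on the wild-type arrays. The 5' control read 14623 and 22482 on the labelled knockout arrays, against 14606 and 20672 on the wild-type arrays. The log2 difference was 0.22 at the 3' end, 0.20 in the middle and 0.06 at the 5' end, so its size depended on the position along the transcript. The ratio of 3' to 5' signal, a sign of RNA length, was 1.36 and 1.61 on the labelled knockout arrays, against 1.26 and 1.40 on the wild-type arrays. The part of RNA length in the other members was not tested. Gpi1, Eno1 and Bnip3l had no probe set paired with them alone and are not reported.

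The fate of pyruvate is set by lactate dehydrogenase and by the kinases that switch off pyruvate dehydrogenase. Ldhb, the heart-type subunit of lactate dehydrogenase, read 12138 and 9228 on the labelled knockout arrays, against 7367 and 6802 on the wild-type arrays. The mean was 10683 ± 2057 in labelled knockout and 7085 ± 400 in wild type (SD, n = 2 each), a log2 difference of 0.58 (SE 0.21, 95% interval before adjustment 0.09 to 1.06). In the limma fit its unadjusted p was 0.025 and its adjusted p 0.875. All 4 Ldhb probe sets gave a positive difference, between 0.55 and 0.73, and in 3 of them the groups did not overlap. The difference of the brightest was 0.72 and 0.44 within the replicate numbers. Left out in turn, no array brought it below 0.38. Ldhb and the summed thymocyte genes were both highest on labelled knockout 1, and the part of thymocyte RNA in Ldhb was not tested. Within replicate number 2 the thymocyte sum was 12623 in labelled knockout, against 14910 in wild type. The list was split there, with 3 of 7 tested thymocyte genes higher in labelled knockout, against 54.5% of all genes.

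Ldha, the muscle-type subunit and a HIF-1 target, read 18444 and 28105 on the labelled knockout arrays, against 15328 and 21812 on the wild-type arrays. Within each replicate number the knockout array was higher, by 0.27 and 0.37, but the groups overlapped and the overall log2 difference of 0.32 had an SE of 0.33. It was 0.62 without labelled knockout 1, 0.012 without labelled knockout 2, 0.062 without wild type 1 and 0.57 without wild type 2. Pdk1, a HIF-1 target that inhibits pyruvate dehydrogenase, read 7585 and 8892 on the labelled knockout arrays, against 6527 and 6207 on the wild-type arrays. This probe set had no overlap and a log2 difference of 0.37 (SE 0.18), while the 3 others gave 0.15, 0.09 and -0.14, all with overlap. Pdk3, a related kinase, read 1835 and 1570 on the labelled knockout arrays, against 1638 and 1356 on the wild-type arrays, a log2 difference of 0.19 (SE 0.23). Slc16a3, the lactate exporter MCT4, read 1960 and 1729 on the labelled knockout arrays, against 1274 and 1408 on the wild-type arrays. Its groups did not overlap, the log2 difference was 0.45 (SE 0.22), and it stayed between 0.36 and 0.54 with each array left out.

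**Figure D3:**
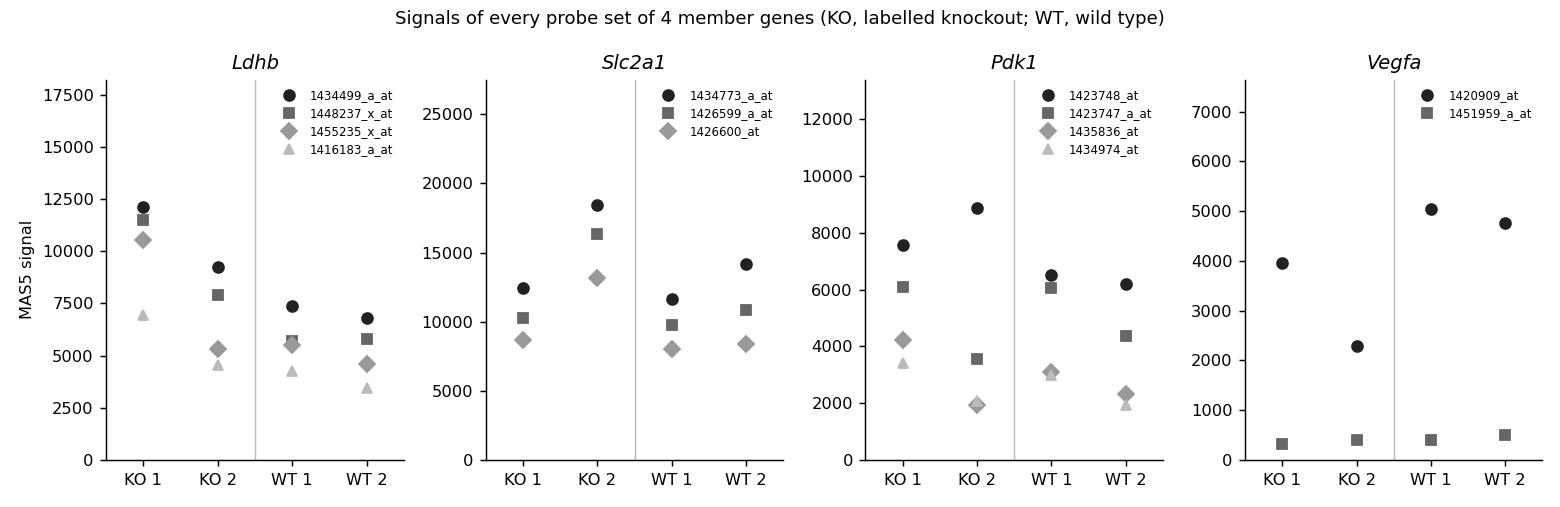
MAS5 signals of every probe set of Ldhb, Slc2a1, Pdk1 and Vegfa on the 2 labelled knockout arrays, left of each grey line, and the 2 wild-type arrays, with 1 symbol per probe set and axes from 0. All 4 Ldhb probe sets were highest on labelled knockout 1, whereas of the 4 Pdk1 probe sets 1 had both knockout values above both wild-type values.

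Among the sensors of the hypoxia response, Hif1a, the oxygen-regulated subunit of HIF-1, read 12469 and 13508 on the labelled knockout arrays, against 13132 and 16666 on the wild-type arrays. Its log2 difference was -0.19 (SE 0.23) with overlap, and 0.04 with each array centred on its median, while 3 further probe sets gave -0.05, -0.66 and -0.71. HIF-1 is controlled mainly at the protein, which arrays do not measure. Egln1, the main prolyl hydroxylase, read 5698 and 6987 on the labelled knockout arrays, against 4961 and 6598 on the wild-type arrays, a log2 difference of 0.14 (SE 0.21). These groups overlapped, while a dimmer Egln1 probe set gave 0.29 without overlap. Egln3, a hydroxylase that HIF-1 itself raises, read 3409 and 2405 on the labelled knockout arrays, against 1992 and 2546 on the wild-type arrays. Labelled knockout 1 was high and labelled knockout 2 lay between the wild-type arrays, with differences of 0.77 and -0.08 within the replicate numbers, and a second probe set gave -0.10.

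Vegfa, the growth factor that draws vessels toward tissue short of oxygen, had the lowest log2 difference of the tested members. It read 3952 and 2290 on the labelled knockout arrays, against 5035 and 4771 on the wild-type arrays. The mean was 3121 ± 1175 in labelled knockout and 4903 ± 187 in wild type (SD, n = 2 each), and the log2 difference was -0.70 (SE 0.27, 95% interval before adjustment -1.33 to -0.07). In the limma fit its unadjusted p was 0.033 and its adjusted p 0.875. Most of it lay between the replicate 2 arrays, at -1.05, and -0.35 lay within replicate number 1. Without labelled knockout 1 it was -1.09, and without labelled knockout 2 it was -0.31. Labelled knockout 2 carried the placental transcripts named above, whose part was not tested. The summed signal of 11 cartilage markers was 96032 and 127106 on the labelled knockout arrays, against 119373 and 138333 on the wild-type arrays. With 8 of these 11 markers below wild type within both replicate numbers and 5 without overlap on the lower side, their median log2 difference was -0.30. Of all genes 26.3% were lower within both numbers and 14.6% did not overlap on that side. Cartilage was not alone in this, since 7 of 8 airway epithelium, 6 of 7 endothelial and 6 of 8 smooth muscle genes tested had means below wild type. So did 4 of 12 skeletal muscle genes, while all 7 thymocyte and 3 erythroid genes tested lay above it, as did 55.9% of all genes. The part of the cartilage markers or of these other lists in Vegfa was not tested. A dimmer Vegfa probe set gave -0.30 with overlap.

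The other targets gave small differences of both signs. Ankrd37, an ankyrin-repeat protein known as a HIF-1 target, read 2291 and 1892 on the labelled knockout arrays, against 2366 and 2760 on the wild-type arrays. It was the other member without overlap on the lower side, at -0.29 (SE 0.21). Bnip3, a mitophagy receptor, read 7703 and 7852 on the labelled knockout arrays, against 6298 and 7054 on the wild-type arrays, without overlap and with a log2 difference of 0.22 (SE 0.17). Kdm3a, a histone demethylase induced by hypoxia, read 5479 and 4390 on the labelled knockout arrays, against 3899 and 4220 on the wild-type arrays. It also did not overlap, at 0.27 (SE 0.19), with 0.49 and 0.06 within the replicate numbers. Adm, the vessel-dilating peptide adrenomedullin, read 4830 and 2194 on the labelled knockout arrays, against 3697 and 2825 on the wild-type arrays. The knockout pair enclosed the wild-type pair, and the log2 difference was 0.01, or -0.01 on its other probe set.

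The remaining targets overlapped between genotypes. Ddit4, an inhibitor of mTOR signalling, read 12040 and 17507 on the labelled knockout arrays, against 11494 and 16461 on the wild-type arrays, and was higher on both replicate 2 arrays, with a log2 difference between genotypes of 0.08 (SE 0.29). Ndrg1, a stress-responsive gene, read 7753 and 6730 on the labelled knockout arrays, against 6744 and 7120 on the wild-type arrays, a log2 difference of 0.06 (SE 0.18), and its 5 probe sets gave values of both signs from -0.36 to 0.21. P4ha1 and P4ha2 encode the catalytic subunits of collagen prolyl hydroxylase, which cartilage and fibrous matrix need. P4ha1 read 3809 and 5649 on the labelled knockout arrays, against 3806 and 4829 on the wild-type arrays. A dimmer P4ha1 probe set gave a log2 difference of -1.09 without overlap, against 0.11 for the brighter, so the probe sets disagreed. P4ha2 read 1993 and 2214 on the labelled knockout arrays, against 2331 and 1866 on the wild-type arrays, a log2 difference of 0.01, or -0.00068 after quantile normalisation. Car9, a membrane carbonic anhydrase, was below the level filter, at 209 and 191 on the labelled knockout arrays, against 255 and 116 on the wild-type arrays.

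Set against each other, the glucose-use genes stood above the other hypoxia genes by 0.16 in median log2 difference. With each array left out in turn this gap was between 0.12 and 0.28, the higher value without labelled knockout 2, and it was not tested because the members were chosen with results known. The gap by array, taken from deviations from the mean of the 4 arrays, was 0.07 and 0.15 on the labelled knockout arrays, against -0.06 and -0.14 on the wild-type arrays. Within the replicate numbers the glucose-use median was 0.23 and 0.21, while the hypoxia median was 0.13 and -0.01. For the 14 tested enzymes alone, without transporters and kinases of flux, the medians within numbers 1 and 2 were 0.25 and 0.06. For the 9 tested targets other than Hif1a, Egln1 and Egln3 they were 0.07 and 0.06, so that narrower gap lay mostly within number 1. The hypoxia median was -0.04 without labelled knockout 2, -0.02 without wild type 1, 0.09 without labelled knockout 1 and 0.19 without wild type 2. Groups did not overlap for 7 glucose-use genes on the higher side and 0 on the lower, and for 2 hypoxia genes on each side. The 7 were Pfkl, Aldoc, Ldhb, Slc2a3, Slc16a3, Pdk1 and, by a near tie, Pkm. Over all genes tested, 21.5% did not overlap on the higher side and 14.6% on the lower. Both signs among the hypoxia genes came from genes that HIF-1 is known to raise, with Bnip3 and Kdm3a on one side and Vegfa and Ankrd37 on the other.

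**Figure D4:**
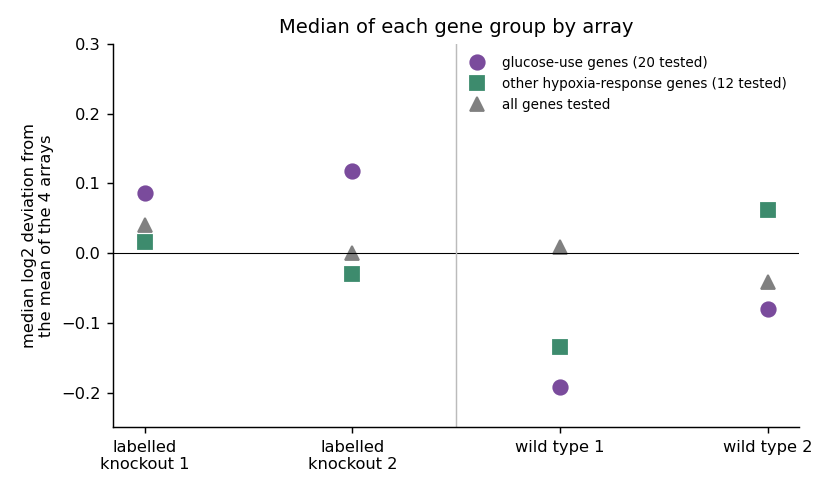
Median log2 deviation from the mean of the 4 arrays, for the glucose-use genes (circles), the other hypoxia-response genes (squares) and all genes tested (triangles), on the 2 labelled knockout and the 2 wild-type arrays. The glucose-use median was 0.09 and 0.12 on the labelled knockout arrays and -0.19 and -0.08 on the wild-type arrays, while the hypoxia median was highest on wild type 2, at 0.06.

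Between related genes the gap in log2 difference was 0.0067 for Pfkl minus Pfkp at its smallest and -0.52 for Aldoa minus Aldoc at its widest. The log2 difference of Hk1 exceeded that of Hk2 by 0.45, with 0.36 and 0.54 within the replicate numbers. Ldhb exceeded Ldha by 0.26, with 0.45 and 0.07. The gap between Aldoa and Aldoc was -0.02 and -1.03 within the replicate numbers. Slc2a1 minus Slc2a3 gave -0.15 and P4ha1 minus P4ha2 gave 0.10. These gaps were not tested. With 2 arrays per genotype the smallest p that exact two-sided permutation allows is 0.333.

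For 18 of the 32 tested members the difference between replicate numbers was larger than that between genotypes, as for 54.3% of all genes. This difference followed the brightness of the probe sets. In the brightest decile of the genes tested the replicate 2 arrays were higher for 88.5% of genes, with a median log2 difference of 0.29, and in the dimmest decile for 29.8%, with -0.20. The 7 glucose-use genes in the brightest decile were Aldoa, Ldha, Pgk1, Tpi1, Pgam1, Pkm and Slc2a1. On the brightest probe set of each, all were higher in replicate 2, by a median of 0.35. Of their further probe sets, those of Pgk1 and the dimmest of Aldoa were lower on both replicate 2 arrays, and the others were higher on both. In the same decile the difference between genotypes had a median of 0.13 for these 7 genes and 0.03 for all 1170 genes. The replicate 2 minus replicate 1 difference was 0.56 for Ldha and -1.03 for Pfkp. Spiked hybridisation controls were also unlike between the numbers, with a geometric mean of 6258 and 18565 on the labelled knockout arrays, against 6361 and 14756 on the wild-type arrays. The summed signal of 12 skeletal muscle genes, a tissue with much glycolysis, was 132400 and 196866 on the labelled knockout arrays, against 128249 and 190415 on the wild-type arrays. It was higher on both replicate 2 arrays, and the part of muscle RNA in the bright glycolysis genes was not tested. Of these 12 genes 8 had a mean above wild type, and the adult fast myosins Myh1 and Myh4, named after their values were seen, had log2 differences of -2.12 and -2.60 without overlap (adjusted p = 0.875 each, limma).

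**Figure D5:**
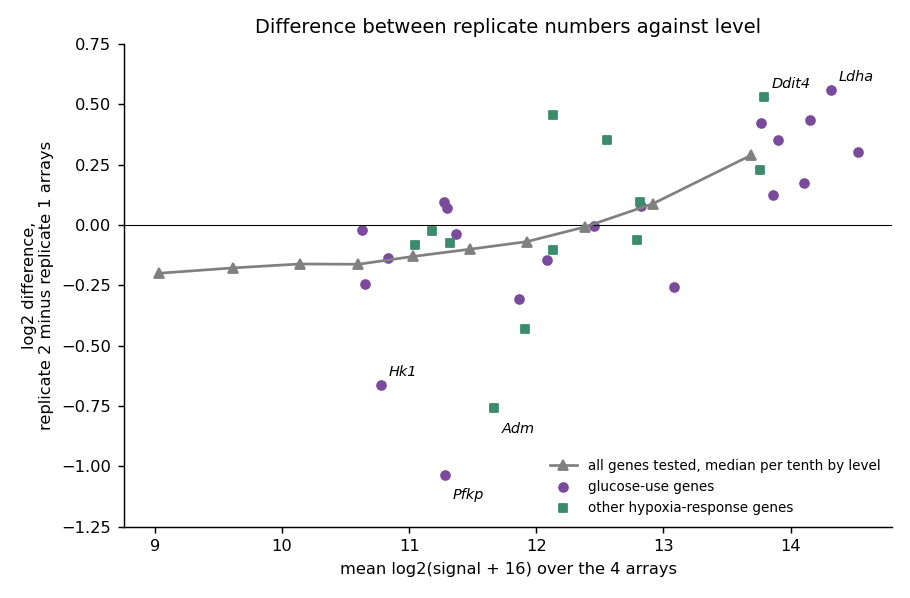
Log2 difference between the replicate 2 and the replicate 1 arrays, averaged over both genotypes, against the mean log2(signal + 16) over 4 arrays, for the glucose-use genes (circles) and the other hypoxia-response genes (squares). The grey line joins the medians of all genes tested in deciles of level, which lie at -0.20 in the dimmest and 0.29 in the brightest decile, and Pfkp lies lowest at -1.03.

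Other genes of glucose use gave values of both signs. Of 36 listed genes 28 were tested, 16 with a mean above wild type and 12 below, and 0 passed the limma test after adjustment, with 1 at an unadjusted p under 0.05. Of all genes 55.9% were above wild type and 4.58% had such a p. The listed genes' median log2 difference was 0.09, with 0.27 and -0.13 within the replicate numbers, and it was -0.11 without labelled knockout 1 and -0.0052 without wild type 1. With no level filter, over 32 genes, it was -0.02. The gene with the unadjusted p under 0.05 was Fbp1, a gluconeogenic phosphatase that opposes phosphofructokinase, which read 1110 and 1164 on the labelled knockout arrays, against 646 and 610 on the wild-type arrays. Tigar, which lowers fructose 2,6-bisphosphate, Pgam2, the muscle mutase, and Pdhb, a subunit of pyruvate dehydrogenase, had log2 differences of 0.37, 0.33 and 0.28 without overlap. On the lower side Pdp1, the phosphatase that reactivates pyruvate dehydrogenase, read 1288 and 963 on the labelled knockout arrays, against 2006 and 1487 on the wild-type arrays. Adpgk, an ADP-dependent glucokinase, had a log2 difference of -0.33 without overlap, and Pfkfb2, the heart-type bifunctional kinase, and Pygl, the liver glycogen phosphorylase, had -0.31 and -0.17 with overlap.

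Other genes of the HIF pathway were likewise mixed. Of 42 listed genes 38 were tested, 25 with a mean above wild type and 13 below, with 7 and 8 not overlapping on the higher and the lower side and a median log2 difference of 0.09, or 0.030 without labelled knockout 2. Over all genes 55.9% had a mean above wild type, 21.5% did not overlap on the higher side and 14.6% on the lower. In the limma fit 0 passed after adjustment and 2 of 38 had an unadjusted p under 0.05, Plin2 and Arnt, against 4.58% of all genes. Plin2, a coat protein of lipid droplets, read 4252 and 4407 on the labelled knockout arrays, against 2975 and 2972 on the wild-type arrays, a log2 difference of 0.54 (SE 0.17). Arnt, the constant partner of Hif1a, read 6521 and 5026 on the labelled knockout arrays, against 7683 and 8309 on the wild-type arrays, a log2 difference of -0.48 (SE 0.19). Its relative Arnt2 had 0.47 and Fam162a, a mitochondrial protein induced by hypoxia, had 0.34, both without overlap. Insig2, which restrains sterol synthesis, Plod2, a collagen lysyl hydroxylase, and Kdm4c, a histone demethylase, had -0.48, -0.40 and -0.40 without overlap. Flt1, a receptor for Vegfa, read 2546 and 8804 on the labelled knockout arrays, against 2884 and 2550 on the wild-type arrays, so labelled knockout 2 alone was high behind the log2 difference of 0.80. The part of the placental transcripts on that array was not tested. Flt1 and Insig2 passed the test without labelled knockout 1.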

How the data were processed

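Signals of 45101 probe sets on 4 arrays were analysed. Per the labels' protocols, 50 ng of total RNA was amplified to cDNA by SPIA and 3.75 µg was labelled with biotin. The authors deposited 1 intensity per probe set, for which the submitters' processing notes name MAS5, with a mean of 1500 on every array after trimming 2% from each end. Its version is not given in the sources used here. Scaling to a mean leaves curved differences between arrays in place, and amplification favours 3' ends.

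Of the probe sets, 34945 had exactly 1 gene in the platform annotation, 932 several, 9160 none, and 64 were controls, which were left out of the fit. Symbols of 34741 were updated through gene identifiers in RefSeq GRCm38.p6. Each gene was represented by its brightest probe set on the log2(signal + 16) scale, and 11694 of 18193 genes reached the level filter, a signal of 397 set at the median over probe sets other than controls. The test was limma 3.58.1 (R 4.3.3, lmFit, eBayes with intensity trend), with genotype as the only term and Benjamini-Hochberg adjustment at 0.05. The pseudocount of 16 understates fold changes of dim genes. Only 2 arrays per group limit the precision, with a median half-width of the 95% interval of 0.57. The procedure was tested on simulated data with independent arrays. That setting differs from these data, where same-numbered arrays deviated together (correlation 0.32 over genes), so it does not test the procedure for such arrays.

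Alternatives were pseudocounts of 1 and 64, no filter and one at the 75th percentile, quantile normalisation, centring, no trend, the mean of probe sets, no x_at probe sets, the replicate number as a block, and each array left out. Genes named are the 38 members, Cacna1h and, of 2 lists of other pathway genes, up to 4 tested genes per direction with the smallest unadjusted p. Marker genes are given mostly as list sums, counts and medians, with Nkx2-1, Smgc, Myh1 and Myh4 also named. Members and lists were chosen with earlier results of these data known. Promoters were taken from RefSeq, and the 4 with the most matches were printed. Figures used matplotlib 3.10.9 in Python 3.11.15.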

Additional observations from a re-analysis of the deposited data

How the results depend on the processing

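No member passed the limma test under any of the 10 alternatives that kept all 4 arrays, and the smallest adjusted p of a member over them was 0.411, with the replicate number as a block. Same-numbered arrays deviated together (correlation 0.32 over genes, 0.27 after quantile normalisation), but the labels do not say what the numbers mark. With the replicate block 0 genes passed the limma test (smallest adjusted p 0.158). An unadjusted p under 0.05 was found for 1359 genes, against 536 without the block, and for 6 members, against 3. The medians of 0.23, 0.07, 0.09 and 0.09 could not move, since both genotypes hold both replicate numbers. Centring each array on its median gave a median of 0.27 for all genes, against 0.04 uncentred. It moved that of the glucose-use, hypoxia, other glucose-use and other HIF genes to 0.46, 0.30, 0.33 and 0.32. The first pair lay 0.19 and 0.03 above all genes. Centring shifts the difference of every gene by the same amount, so these gaps had to equal those of the uncentred fit. The mean of all probe sets gave 0.15 for the glucose-use genes and -0.054 for the other HIF genes, and quantile normalisation gave 0.068 for the other HIF genes. The hypoxia median was 0.0044 and 0.035 under these settings, and with no filter the other glucose-use median was -0.020. The 2 filter settings, the fit with no trend and the replicate block cannot alter a member's log2 difference, so their values could not change sign. Over 314 member values under the alternatives that kept all 4 arrays, these included, 9 changed sign. They were Pgam1 (-0.0062) and P4ha2 (-0.00068) after quantile normalisation, Eno2 (0.19) and Hif1a (0.043) after centring, Pfkfb3 (-0.67), Adm (-0.0018), Ndrg1 (-0.082) and P4ha1 (-0.49) with the mean of probe sets, and Adm (-0.015) without x_at probe sets. With 1 array left out the lone array of a genotype is assumed to vary like the others. The calls ranged from 0 to 492 over all genes, 0 to 2 among members and 0 to 2 among other HIF genes. The glucose-use median ranged from 0.12 to 0.32, the hypoxia median from -0.035 to 0.19, their gap from 0.12 to 0.28, and the medians of other glucose-use and other HIF genes from -0.11 to 0.15 and from 0.030 to 0.085. Of 32 members 16 changed sign in at least 1 such fit, with these ranges of the log2 difference: Hk2 -0.13 to 0.24, Pfkm -0.070 to 0.35, Pfkp -0.33 to 1.11, Aldoa -0.10 to 0.29, Tpi1 -0.00077 to 0.24, Pgk1 -0.0024 to 0.45, Pgam1 -0.14 to 0.23, Eno2 -0.23 to 0.13, Slc2a1 -0.048 to 0.52, Pfkfb3 -0.14 to 0.46, Egln1 -0.064 to 0.35, Adm -0.56 to 0.58, Ndrg1 -0.042 to 0.16, P4ha1 -0.17 to 0.40, P4ha2 -0.15 to 0.17, Ddit4 -0.19 to 0.35. The other 16 kept their sign, with ranges of Hk1 0.030 to 0.97, Pfkl 0.32 to 0.48, Aldoc 0.38 to 0.86, Pkm 0.035 to 0.22, Ldha 0.012 to 0.62, Ldhb 0.38 to 0.78, Slc2a3 0.24 to 0.53, Slc16a3 0.36 to 0.54, Pdk1 0.25 to 0.48, Pdk3 0.051 to 0.32, Hif1a -0.36 to -0.017, Egln3 0.094 to 0.59, Bnip3 0.14 to 0.30, Vegfa -1.09 to -0.31, Ankrd37 -0.43 to -0.16, Kdm3a 0.11 to 0.43.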
